A study of Rattus norvegicus with 12 samples.

Results

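miR-126 and miR-126* (rno-miR-126 and rno-miR-126*) are the 2 mature products of one microRNA precursor, and were measured in Kupffer cells, macrophages that reside in the liver, from pair-fed and ethanol-fed rats. They were taken by name from a list in which the authors put the 30 miRNAs whose basal level ethanol feeding lowered 2-fold or more, so they are 2 of 30 miRNAs, and both are in the list. The list had been chosen by the fold change between these same libraries. The differences of both arms between the diets are therefore given as a description with no test, and support nothing about the effect of ethanol. The rats were adult male Wistar rats that received a liquid diet with ethanol, or matched portions of a control diet with maltose dextrin in its place (pair-fed), and primary Kupffer cells were cultured in medium with serum. Basal cells received no HA35, a fragment of hyaluronic acid that was given to parallel cultures. Each of the 4 groups (pair-fed or ethanol-fed, basal or HA35) had 3 libraries, labelled as days 1 to 3, and the 6 basal libraries carry the values of both arms. Whether one or several rats gave the cells of a day is not stated, so the spread is that between libraries and may be technical.

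MicroRNAs are cut from a hairpin precursor, and either strand of the resulting duplex can be loaded into an Argonaute protein, where its seed (bases 2 to 8) directs it to target transcripts. In older names the star marks the product that was recovered less often. miR-126 is known as a microRNA of endothelial cells and is encoded in an intron of Egfl7, a gene for a secreted protein of blood vessels. In mice and zebrafish it is known to act on Spred1, an inhibitor of signaling by vascular endothelial growth factor, and in human endothelial cells on the adhesion molecule VCAM1. In mice miR-126* is known to act on Dlk1, a Notch ligand. Sinusoidal endothelial cells line the same vessels in which Kupffer cells reside.

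Both arms were found in the RefSeq miRNA table of build GRCr8, in which miR-126 is named rno-miR-126a-3p and miR-126* rno-miR-126a-5p. The precursor lies on chromosome 3, inside the interval of Egfl7. The arms are shown to compare their seeds, in capitals, with each other and with miR-126b, which RefSeq places on the opposite strand of the locus.
miR-126: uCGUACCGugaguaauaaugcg
miR-126*: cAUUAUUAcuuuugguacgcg
miR-126b: uACCAAAAguaauaaugugcug

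miR-126* is the 5′ arm, at chr3:29813182-29813202 on the plus strand, and miR-126 the 3′ arm, at chr3:29813219-29813240, with 16 bases between them (GRCr8). The seeds of the arms differ. Of the 724 mature entries in the RefSeq table, 1 has the seed of miR-126 and 1 that of miR-126*, in each case the arm itself. miR-126b (chr3:29813177-29813198, minus strand) is complementary to miR-126* over 17 bases. It has a seed of its own and is not in the list. RefSeq gave a mature sequence for 22 of the 30 listed miRNAs. Among the other 20 of these, none had the seed of either arm, and the longest run of bases shared with either arm was 5.

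The authors' values are on a log2 scale, normalized and then centred on each miRNA's own median over the 6 libraries. A value of 0 thus lies midway between the 3rd and 4th of the 6 libraries, and the level of one arm cannot be set against that of the other. In pair-fed basal Kupffer cells miR-126 was at 2.75, 0.0015 and 0.75 in the libraries of days 1, 2 and 3. In ethanol-fed basal cells it was at -1.57, -0.42 and -0.0015. Pair-fed day 1 stood far above the other libraries and ethanol-fed day 1 far below them, while the other 4 lay between -0.42 and 0.75. The mean was 1.17 ± 0.82 (SEM, n = 3) in pair-fed and -0.66 ± 0.47 (SEM, n = 3) in ethanol-fed cells, a difference of -1.83 (standard error 0.95) on the log2 scale, or 3.56-fold lower with ethanol feeding. In these bulk libraries, fewer cells of a type and less of the miRNA per cell cannot be told apart.

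miR-126* was at 2.59, -0.15 and 1.38 in pair-fed libraries of days 1, 2 and 3. In ethanol-fed libraries it was at -1.98, 0.044 and -0.044. The extremes were the same libraries as for miR-126, but here pair-fed day 3 was also high, and pair-fed day 2 lay below ethanol-fed days 2 and 3. The mean was 1.27 ± 0.79 (SEM, n = 3) in pair-fed and -0.66 ± 0.66 (SEM, n = 3) in ethanol-fed cells, a difference of -1.93 (standard error 1.03), or 3.82-fold lower. For both arms the range within the pair-fed group (2.75 for miR-126 and 2.74 for miR-126*) was larger than the difference between the diets.

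**Figure D1:**
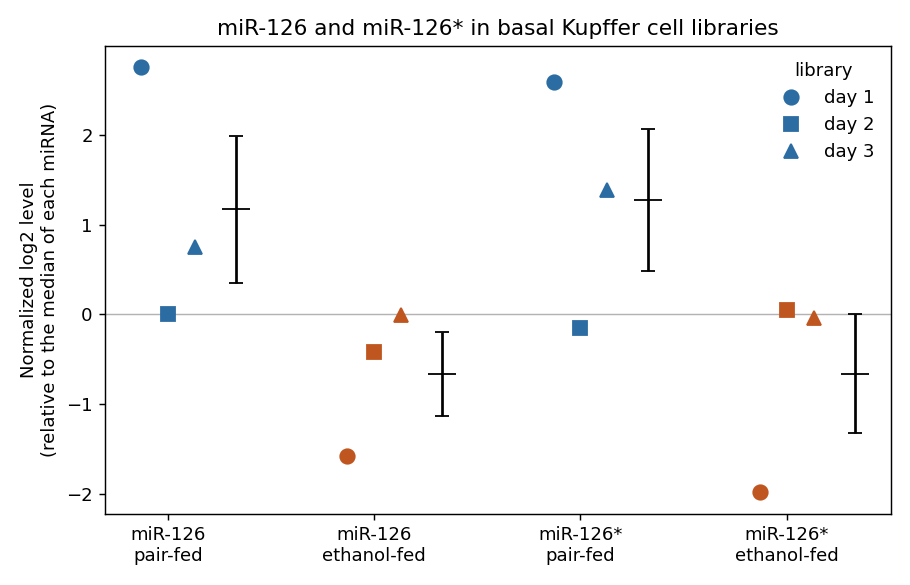
Normalized log2 levels (vertical axis, relative to the median of each miRNA) of miR-126 and miR-126* in 3 pair-fed (blue) and 3 ethanol-fed (orange) basal libraries. Symbols give the day, and bars the mean ± SEM; pair-fed day 1 is at 2.75 and 2.59 and ethanol-fed day 1 at -1.57 and -1.98.

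The diet groups did not overlap for miR-126 and overlapped for miR-126*. The separation of miR-126 rested on a gap between 0.0015 in pair-fed day 2 and -0.0015 in ethanol-fed day 3. Without overlap between the groups were 7 of the 30 listed miRNAs (23.3%), and 30 of 30 (100%) were at least 2-fold lower, as the choice of the list requires. In limma, fitted across the 30 miRNAs, 0 (0%) passed a Benjamini-Hochberg adjusted p of 0.05, and 6 had an unadjusted p under 0.05. Since limma gave every miRNA the same standard error (0.90), these p-values follow the order of the fold changes by which the list was chosen, and they test nothing about its miRNAs. The falls of miR-126* and miR-126 were the 3rd and 4th largest in the list, in which the smallest was that of miR-541 at -1.02. The miRNAs outside the list were not analysed here.

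The difference was unequal between days. For miR-126 the ethanol-fed library was below the pair-fed library on each day, with differences of -4.32 on day 1, -0.42 on day 2 and -0.75 on day 3. miR-126* differed by -4.57 on day 1, 0.20 on day 2 and -1.42 on day 3. The ethanol-fed library was thus lower on all 3 days for miR-126 and on 2 of 3 days for miR-126*. For miR-126 this follows from groups that do not overlap, whichever libraries are paired. The median of the other 28 listed miRNAs in each library was also lower on each day, by differences of -2.70, -0.19 and -0.41. Without pair-fed day 1 the difference was -1.04 for miR-126 and -1.27 for miR-126*, and without ethanol-fed day 1 it was -1.38 and -1.27. Without day 1 of both diets it was -0.59 for miR-126 and -0.61 for miR-126*, close to the median of the other 28 listed miRNAs in those 4 libraries (-0.63). miR-126 was then 17th and miR-126* 15th in the order of falls. The differences of miR-126 and miR-126* over 6 libraries thus rested mainly on the libraries of day 1.

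The arms were then set against each other library by library. The gap, miR-126* minus miR-126 on the log2 scale, was -0.16, -0.15 and 0.63 in pair-fed libraries of days 1, 2 and 3. It was -0.41, 0.46 and -0.043 in ethanol-fed libraries. The largest gap was that of pair-fed day 3, and both diets had gaps of either sign. Since each arm was centred on its own median, the sign of a gap does not say which arm was more abundant. The mean gap was 0.10 ± 0.26 (SEM, n = 3) in pair-fed and 0.0039 ± 0.25 (SEM, n = 3) in ethanol-fed cells, a difference of -0.10 (standard error 0.36). The SD between libraries of a diet, pooled over the diets, was 0.45 for the gap, against 1.16 for miR-126 and 1.26 for miR-126*. The arms thus varied together from library to library, and the diets differed less in the gap than its libraries did. Relative to the median of the other 28 listed miRNAs in each library, this pooled SD was 0.45 for miR-126 and 0.71 for miR-126*. miR-126 thus followed that median as closely as it followed its partner.

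**Figure D2:**
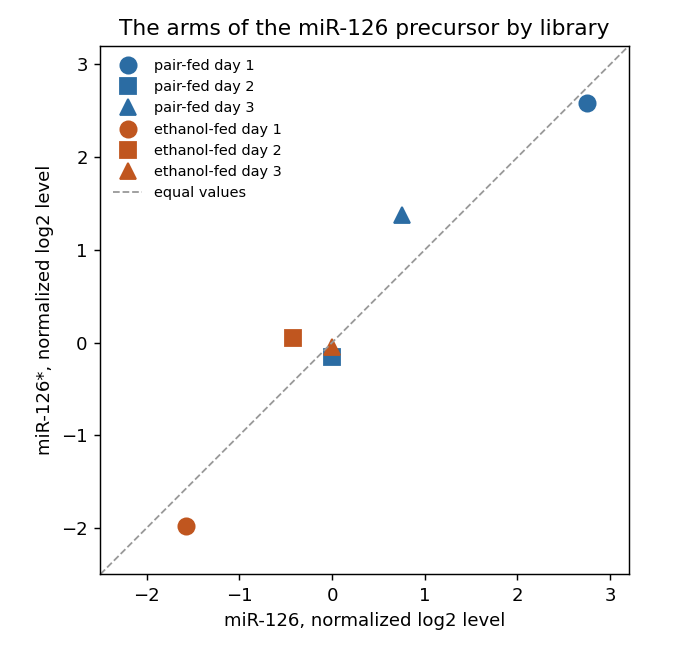
miR-126* (vertical axis) against miR-126 (horizontal axis), both as normalized log2 levels, with 1 point per basal library and a dashed line of equal values. The points lie near the line from ethanol-fed day 1 to pair-fed day 1, and pair-fed day 3 has the largest gap (0.63).

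Over the 6 libraries Pearson's r between the arms was 0.97, and 0.94 for the deviations from the diet means. Spearman's rho was lower, at 0.77, since the middle libraries changed places. Both arms are measured in the same libraries, so these values are a description. The list holds both products of 6 precursors, with the arms of miR-126 the closest of the 6 pairs by the root mean square gap (0.37) and the second closest by r. The next pairs were miR-199a-5p with miR-199a-3p, products of a precursor that is high in mesenchymal cells (0.43, with r at 0.97), and miR-195 with miR-195* (0.44, with r at 0.94). In the pairs of miR-143 (0.73), miR-152 (0.91) and miR-455 (1.41) the gap was larger. In the pairs of miR-152 and miR-455, the star strand shared its lowest value in 2 and 3 libraries, so that their gaps depend on that floor. The differences between these 6 pairs were not tested.

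**Figure D3:**
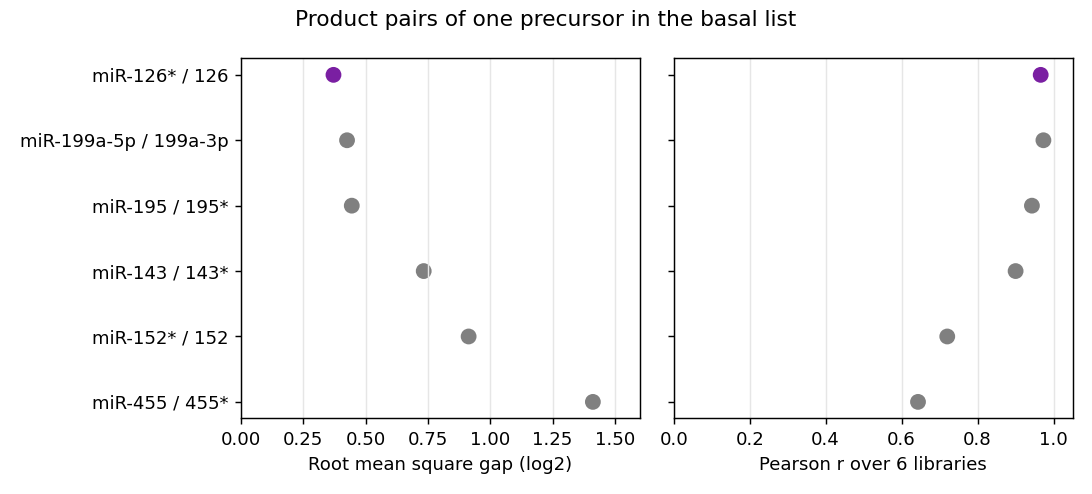
The 6 precursors with both products in the list, by the root mean square gap between the products in log2 (left) and by Pearson r over 6 libraries (right). The miR-126 pair, in purple, has the smallest gap (0.37) and the second highest r (0.97).

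Each library was also described by the median of the other 28 listed miRNAs, since many of them share the pattern of the arms. This median was 1.92, 0.042 and 0.30 in pair-fed libraries of days 1, 2 and 3, and -0.78, -0.15 and -0.12 in ethanol-fed libraries. Pair-fed day 1 was the highest library for 25 of the 30 miRNAs, ethanol-fed day 1 the lowest for 21, and both held for 18, the arms of miR-126 included. Relative to this median, miR-126 was at 0.83, -0.041 and 0.45 in pair-fed and at -0.79, -0.27 and 0.11 in ethanol-fed libraries. On the same relative scale miR-126* was at 0.67, -0.19 and 1.08 in pair-fed and at -1.20, 0.19 and 0.071 in ethanol-fed libraries. The differences between the diets were then -0.73 (standard error 0.36) for miR-126 and -0.83 (standard error 0.58) for miR-126*, and the diets overlapped for both arms. This scale removes what the list has in common, the difference for which it was chosen included. In pair-fed day 1 the arms were 5th and 7th from the top of the 30 miRNAs, and in ethanol-fed day 1 they were 22nd and 25th.

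**Figure D4:**
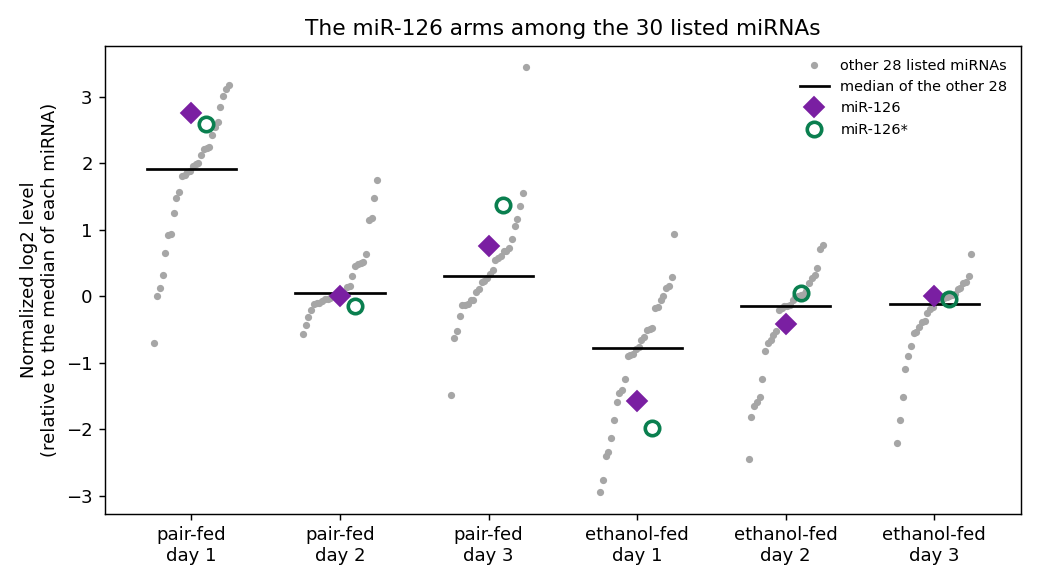
Normalized log2 levels (vertical axis) of the 30 listed miRNAs in each of the 6 basal libraries, with miR-126 (diamonds), miR-126* (circles), the other 28 (grey points) and their median (black lines). The arms lie above the median of 1.92 in pair-fed day 1 and below that of -0.78 in ethanol-fed day 1.

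The miRNAs most like the arms were ranked by Pearson's r with the mean of the 2 arms over the 6 libraries, which ran from -0.051 to 0.995 among the other 28 (median 0.83). The 5 nearest were miR-195* (0.995), miR-10a-5p (0.99), miR-497 (0.98), miR-199a-3p (0.97) and miR-195 (0.96). Their sequences are shown because none shares a seed with either arm, whereas miR-195 and miR-497, which belong to one cluster, share a seed with each other.
miR-195*: cCAAUAUUggcugugcugcucca
miR-10a-5p: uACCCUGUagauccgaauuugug
miR-497: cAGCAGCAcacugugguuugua
miR-199a-3p: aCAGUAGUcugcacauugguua
miR-195: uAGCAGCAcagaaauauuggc

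By r and by the root mean square gap (0.15), miR-195* was nearest to the mean of the arms. It was at 2.55, -0.035 and 1.17 in pair-fed and -1.59, 0.035 and -0.19 in ethanol-fed libraries of days 1, 2 and 3. By Spearman's rho with that mean it was not the nearest, at 0.77 against 1 for miR-195 and miR-199a-3p. The r of miR-195* with miR-126* (0.99) was above that of miR-126 with miR-126* (0.97). For miR-126 the nearest miRNA was miR-10a-5p (0.99), and miR-126* was only the 7th of 29. Products of other precursors were thus as near to each arm as its partner was. The least like were miR-541 (0.11) and miR-362 (-0.051). In miR-362 the highest library was ethanol-fed day 1, at 0.94, where the arms were lowest.

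Lists of miRNAs by cell type were drawn up here and are not the authors'. The authors' table holds only miRNAs that fell 2-fold or more, so endothelial miRNAs without such a fall would be absent from it. Of 16 miRNAs on the endothelial list drawn up here, 4 were in the table, with 5 products. Beside the arms these were miR-10a-5p, encoded in a Hox gene cluster (log2 difference -1.29), and miR-27b* (-1.36) and miR-23b (-1.16), which come from one cluster that is high in vascular tissue. Their differences lay near the median of the other 28 listed miRNAs (-1.28), and those of the arms were larger. The diets did not overlap for 4 of the 5 products, miR-126* being the exception, and did not overlap for 23.3% of the whole list, a contrast that chose both. The nearest values of the diets were 0.14 and -0.14 for miR-10a-5p and 0.033 and -0.033 for miR-23b. They were 0.019 and -0.019 for miR-27b*, and 0.0015 and -0.0015 for miR-126, so that these separations rested on small gaps. The mesenchymal list of 12 had 6 miRNAs with 9 products in the table, at a median of -1.38 (range -2.30 to -1.02), and for 1 of the 9 the diets did not overlap. Both lists were highest in pair-fed day 1, at 1.83 to 2.75 for the 5 endothelial products and 0.65 to 3.18 for the 9 mesenchymal ones. The part of endothelial or mesenchymal RNA in the values of the arms was not tested. None of the 8 miRNAs of macrophages and other leukocytes was in the table, and none of the 4 of hepatocytes, the 6 of epithelia or the 3 of erythroid cells, so that the labelled cell type could not be checked by its own miRNAs. The authors' HA35 list holds 3 miRNAs chosen for a level in ethanol-fed cells that was 2-fold or more above basal. Neither arm was among them, and their levels with HA35 were not analysed here.

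Total reads were 3979946 to 6151744 in pair-fed and 2865329 to 4958302 in ethanol-fed basal libraries, of which 1630301 to 3805958 per library aligned. Reads per miRNA are not given in the files used here, so the counting error of the arms is unknown. Pair-fed day 1 had the lowest share of aligned reads of the 6 (45.5%, against 50.4% to 61.9%), and ethanol-fed day 1 was at 50.4%. Reads too short to align were 24.8%, 11.7% and 25.9% in pair-fed libraries of days 1, 2 and 3, and 22.6%, 8.81% and 7.32% in ethanol-fed libraries. The 3 libraries with the high shares were those in which the mean of the arms was farthest from 0 (2.67 and 1.06 in pair-fed days 1 and 3, and -1.78 in ethanol-fed day 1). The same held for the median of the other 28 listed miRNAs (1.92, 0.30 and -0.78 in these libraries), so it is not particular to the arms. The part of these shares in the values of the arms was not tested.

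The alignment report also counts alignments per chromosome, which were read for chromosome 3, the chromosome of the precursor in GRCr8, after their values had been seen. The authors aligned to build rn4, in which the place of the precursor was not checked here. Alignments on chromosome 3 were 6.44%, 5.31% and 5.73% of all alignments in pair-fed basal libraries of days 1, 2 and 3. In ethanol-fed basal libraries they were 4.48%, 4.17% and 4.60%. Every ethanol-fed library was below every pair-fed library, as for 2 of 21 chromosomes (9.52%), the other being chromosome 16. In pair-fed libraries the order of the days was that of both arms, and also that of the median of the other 28 listed miRNAs (1.92, 0.042 and 0.30). In ethanol-fed libraries day 1, the lowest for both arms and for that median, did not have the lowest share. Alignments outnumbered aligned reads, so that some reads count more than once. There were 2909963 against 2090411 in pair-fed basal day 1, and 2495094 against 1630301 in ethanol-fed basal day 2. The counts on chromosome 3 include the reads of the arms only if the precursor lies there in rn4 too. The share of those reads is unknown. Reads of all other RNA from the chromosome, where RefSeq lists 18 miRNA genes, are counted as well. None of the other listed miRNAs with a RefSeq sequence is on it.

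In the HA35 libraries, which the list did not use, the share was 6.71%, 4.35% and 5.65% in pair-fed and 4.33%, 5.85% and 4.73% in ethanol-fed cells. The groups overlapped, at 5.57% ± 1.18 (SD, n = 3) and 4.97% ± 0.79 (SD, n = 3), a difference of -0.60 percentage points (p = 0.6 in a two-sided exact permutation test, which cannot give less than 0.1 with these groups). Pair-fed cells of day 1 had the highest share of their group with and without HA35.

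**Figure D5:**
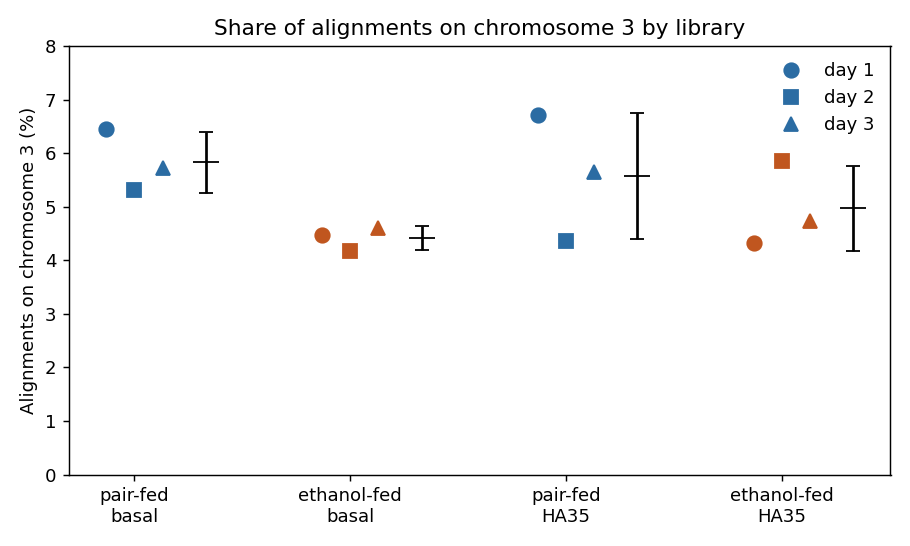
Alignments on chromosome 3 as a percent of all alignments (vertical axis) in the 12 libraries, by diet and treatment, with symbols for the day and bars for the mean ± SD. The basal groups are apart (5.31% to 6.44% against 4.17% to 4.60%), and the HA35 groups overlap.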

How the data were processed

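Small RNA libraries were prepared by the authors with a TruSeq kit and analysed with small RNA analysis software on rat build rn4. The submitters' processing notes name HTSeq and DESeq. The authors deposited normalized log2 values of 30 miRNAs in the 6 basal libraries, with the median of each miRNA subtracted, and whole numbers of reads and their percentages in an alignment report. How the values were normalized was not given in the sources used here. Columns with the authors' own fold changes and p-values were not used.

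Groups and days came from the sample labels. The members and the lists of miRNAs were chosen with earlier results of these data known. The deposited values were analysed directly, without a filter or pseudocount. limma (version 3.58.1, R 4.3.3) was fitted across the 30 miRNAs and used only as background. It was tested on simulated data with independent miRNAs and a larger change than any in the list. That test does not show how limma performs on this list. Python 3.11.15 with pandas 2.3.3, numpy 2.4.6 and matplotlib 3.10.9 served for the rest. The miRNAs named are both arms, the 5 nearest and 2 farthest by Pearson's r, the 6 product pairs, and the listed endothelial miRNAs. Products were matched to RefSeq by name and by their order along the genome.

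Replicates are numbered by day in the labels, and libraries of the same day were treated as pairs in one alternative. Across miRNAs the deviations of same-day libraries from their group means correlated at -0.28, -0.39 and -0.35. The alternatives were a block for the day, leaving out each library or day, medians, other thresholds, other measures of likeness, and re-centring on the list.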

Additional observations from a re-analysis of the deposited data

How the results depend on the processing

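The differences of both arms kept their direction under all alternatives run. Leaving out replicates gave -2.54 to -0.59 for miR-126 and -2.996 to -0.61 for miR-126*. With the day as a replicate block no call changed. The differences stayed at -1.83 and -1.93, as they must when each day has both diets. Medians of 3 libraries gave -1.17 and -1.42. The difference in the gap between the arms (-0.10) took either sign, from -0.46 to 0.19 when replicates were left out. The r of the arms (0.97) was 0.96 to 0.98 when a single library was left out. It was not computed without day 1 of both diets, which held the highest and the lowest value of each arm. The likeness was 0.77 as Spearman's rho, 0.94 within diets and 0.87 after re-centring on the other listed miRNAs, with a root mean square gap of 0.37. In the list, limma called 0 miRNAs (0 with the replicate block, with 1 at an unadjusted p under 0.05) and 0 to 2 without replicates (2 without day 1). The 30 miRNAs at least 2-fold lower became 6 to 27 without replicates (10 without pair-fed day 1 and 6 without day 1), 9 at 3-fold and 2 at 4-fold, and the 7 without overlap became 8 to 21, as fewer libraries overlap less. The difference on chromosome 3 (-1.41 percentage points) was -1.67 to -1.10 without replicates, alternatives chosen after the data were seen. With 3 libraries a group and no reads per miRNA, the counting error of either arm cannot be set apart from the spread between libraries.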
